A study of Rattus norvegicus with 35 samples.

Results

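Retinas taken 15 d after the optic nerve was cut were compared with retinas taken 24 h after the cut, so the comparison set a late stage of the injury against an early one. It rested on the 4 arrays whose titles name transection at 15 d or at 24 h, 2 per time point, out of 35 arrays in the series. The rats were adult female Sprague-Dawley animals, and intraorbital nerve transection, or IONT, means that the left optic nerve was cut inside the orbit, behind the eye. The other groups were naive retinas without any operation (5 arrays), IONT retinas taken at 3 d (2 arrays) and at 12 h, 48 h and 7 d (3 arrays each), and retinas after intraorbital nerve crush, or IONC, from 12 h to 7 d (3 arrays at each of 5 times). Each array carried 1 RNA pool of 4 whole retinas, each from another animal, so the p-values speak of how far pools differ rather than animals, and the number of arrays limits the precision. No sham operation is among the groups, so cutting the nerve and the surgery itself cannot be told apart at either time.

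Retinal ganglion cells, or RGCs, are the output neurons of the retina, and the optic nerve is the bundle of their axons. A cut through this nerve severs the axons of the RGCs but of no other retinal neuron, and in adult rats most RGCs die in the weeks that follow. Müller glia, astrocytes and microglia are the glial cells of the tissue and are known to react to the injury, while photoreceptors, bipolar, horizontal and amacrine cells have no axon in the nerve.

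Signal was the log2 value of a probe set, a group of short probes for 1 transcript, as deposited after GCRMA, a method that removes background, normalizes and combines the probes. The spread was estimated with limma, which fits a linear model to each probe set and moderates its variance, over 20 arrays, the 5 naive and the 15 IONT arrays. A call needed a difference of at least 1.2-fold, a Benjamini-Hochberg adjusted p under 0.01 and log odds of a difference (B) above 0. All 4 compared arrays lay in the same array set, defined by a difference between the 3′ and 5′ β-actin control probe sets above 2.4. These differences were 3.65 and 3.22 in the 24 h arrays and 2.90 and 3.27 in the 15 d arrays. Naive replicates 4 and 5 lay in the same set and served as the naive level. The 2 arrays of a time point correlated at 0.993 at both times, against 0.989 for the IONT 3 d pair, which also entered the spread. The 2 arrays at 24 h differed from each other in genes of surface epithelium and lens, whose values are given further below.

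Of 31042 probe sets, 1175 (3.79%) differed between 15 d and 24 h, 737 (2.37%) of them higher and 438 (1.41%) lower at 15 d. Reduced to 1 probe set per gene, 638 of 14217 genes (4.49%) were called, 423 (2.98%) higher and 215 (1.51%) lower at 15 d, and the median difference over all genes was -0.02. Against naive replicates 4 and 5, which share arrays with this comparison, 874 probe sets (2.82%) were called at 15 d and 447 (1.44%) at 24 h. The number of calls rested on the other arrays that set the spread. With the 8 arrays of the same array set alone in the fit limma called 4 probe sets, those of Slc17a6, Nefh and Nefm, which were lower, and of Aard, which was higher, and 5955 had an unadjusted p under 0.05. With only the 4 compared arrays in the fit limma called 0, the lowest adjusted p was 0.0609, and 6328 had an unadjusted p under 0.05. Without IONT 24 h replicate 1 the count was 421 (251 higher, 170 lower), of which 317 were called in the same direction with all arrays. When each array was centred on its median, 57.9% of the calls were lower at 15 d (553 higher, 759 lower), against 37.3% as deposited.

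**Figure D1:**
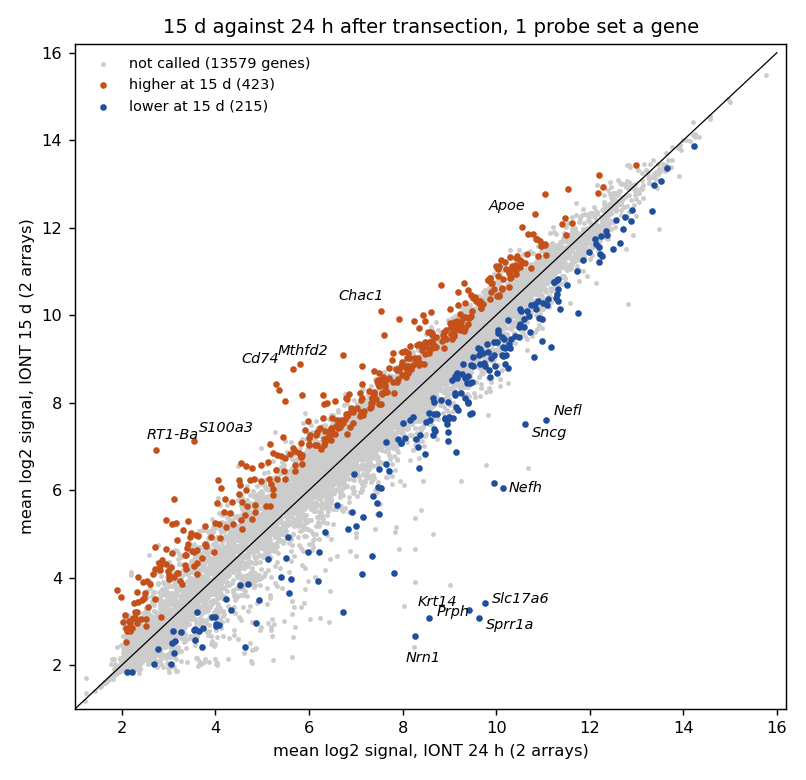
Mean log2 signal of each of 14217 genes in the 2 arrays at 24 h (x axis) and the 2 arrays at 15 d (y axis) after IONT, with the line of equality. The 423 genes called higher at 15 d are drawn in orange and the 215 called lower in blue; Slc17a6, Nrn1 and Prph lie farthest below the line beside Sprr1a and Krt14, and RT1-Ba and S100a3 lie far above it.

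The RGC markers that were called were all lower at 15 d. Of 27 measured members of the RGC marker list, 8 were lower at 15 d than at 24 h, 0 were higher and 19 did not pass the test. Over all genes, 1.51% were called lower and 2.98% higher. The list's median difference was -0.61 against -0.02 over all genes. Both 15 d arrays lay below both 24 h arrays for 23 members, or above them for 3, where 36.8% and 28.5% of all genes did so. Against naive retinas the list's median was -0.06 at 24 h and -0.55 at 15 d. In RNA of whole retinas, fewer RGCs and less RNA per RGC cannot be told apart.

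Slc17a6 encodes VGLUT2, the vesicular transporter that loads glutamate in RGCs. Its log2 signal was 9.91 and 9.72 in naive replicates 4 and 5, 9.78 and 9.76 at 24 h, 8.81 and 8.52 at 3 d, and 3.49 and 3.37 at 15 d. The 24 h arrays were level with naive and the 15 d arrays lay near the low end of the scale. The measured difference between 15 d and 24 h was -6.34 ± 0.23 (SE, 2 arrays each; limma, adjusted p = 1.81e-08).

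Nrn1, which encodes the neurite growth protein neuritin, read 8.84 and 8.67 in naive, 7.92 and 8.60 at 24 h and 2.25 and 3.09 at 15 d. The groups at 24 h and 15 d were far apart, with a measured difference of -5.59 ± 0.42 (limma, adjusted p = 8.92e-06). At 15 d, 1 of its arrays was under a log2 value of 3, near the lowest signals of the arrays, as was 1 each for Rbpms2 and Prph, and these differences are between measured signals. Rbpms, an RNA-binding protein that marks the whole RGC class, read 8.53 and 8.68 in naive, 7.73 and 7.91 at 24 h and 4.62 and 3.59 at 15 d. It was lower at 15 d by -3.71 ± 0.47 (limma, adjusted p = 4.99e-04), although its 3 probe sets ranged from -3.71 to -0.07. Its relative Rbpms2, not on the list, had a difference of -3.50 ± 0.38 (limma, adjusted p = 1.86e-04), with 6.58 and 6.86 at 24 h against 2.92 and 3.53 at 15 d.

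Sncg, which encodes γ-synuclein, read 10.25 and 10.97 at 24 h and 7.74 and 7.28 at 15 d, and fell by 3.10. Thy1, a surface glycoprotein of RGCs, read 8.08 and 8.64 at 24 h and 6.51 and 6.47 at 15 d, and fell by 1.87. In both genes the naive arrays (11.02 and 11.14 for Sncg, 8.16 and 8.59 for Thy1) lay well above the 15 d arrays. Nell2, a secreted protein of neurons, fell by 1.75 and Stmn2, a regulator of microtubules in growing axons, by 0.68, both with all 15 d arrays below the 24 h and naive arrays.

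Cartpt, the precursor of a peptide carried by a class of RGCs, took another course. It read 9.92 and 10.21 in naive, 10.90 and 10.92 at 24 h, 9.98 and 9.94 at 3 d and 10.06 and 9.79 at 15 d. The 15 d arrays thus lay at the naive level, and the difference of -0.98 ± 0.17 (limma, adjusted p = 0.00358) came with 24 h arrays that were above naive by 0.85 (adjusted p = 0.0141, not called).

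**Figure D2:**
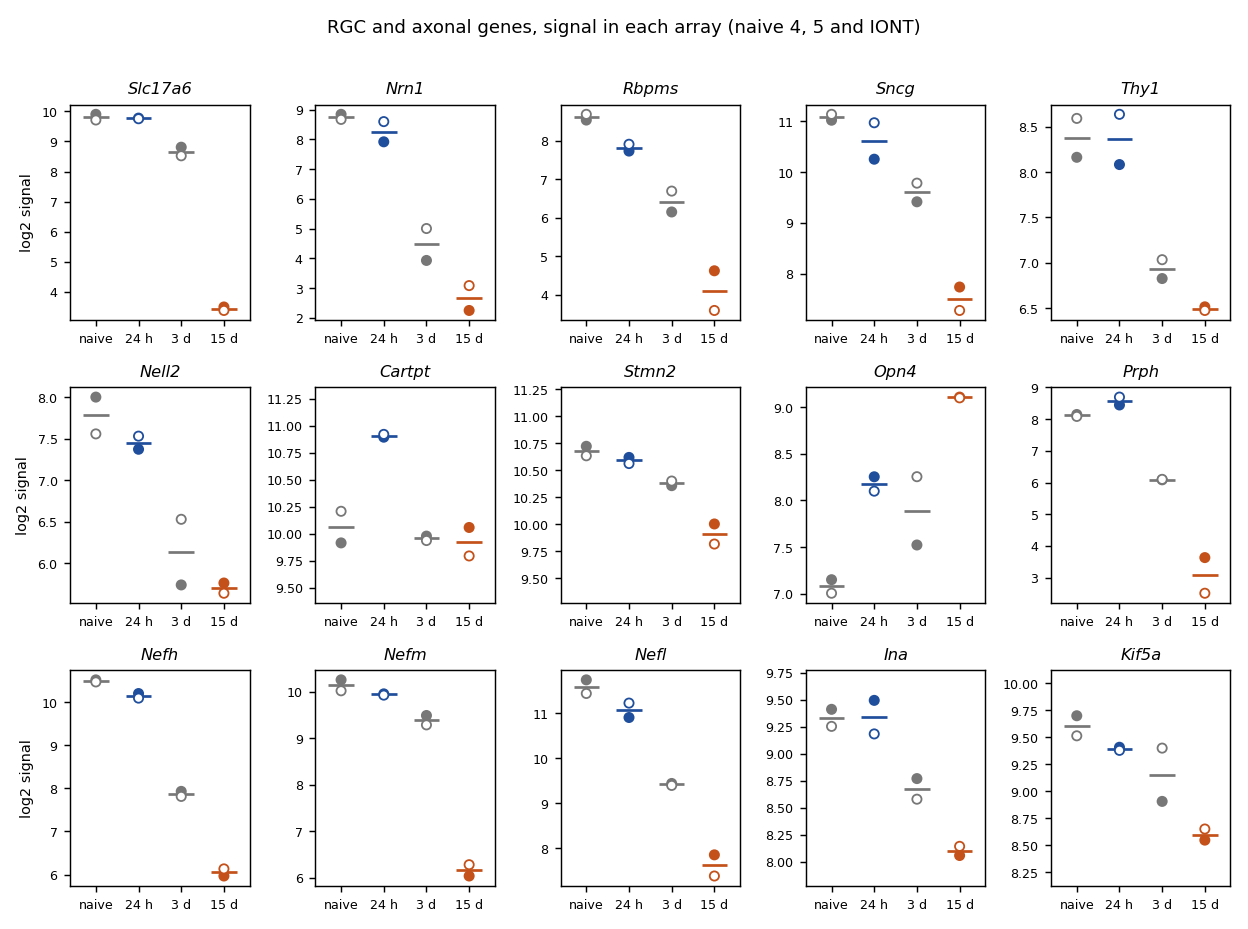
Log2 signal (y axis, its own scale in each panel) of 15 RGC and axonal genes in naive replicates 4 and 5 and in the IONT arrays at 24 h, 3 d and 15 d. Filled circles are naive 4 or replicate 1, open circles naive 5 or replicate 2, and bars the mean of both; for Slc17a6 the 24 h arrays read 9.78 and 9.76 and the 15 d arrays 3.49 and 3.37, while Opn4 was highest at 15 d, 9.11 and 9.10.

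The calls of Slc17a6, Nrn1, Rbpms, Sncg and Thy1 held without any 1 of the 4 compared arrays, whereas those of Nell2, Cartpt and Stmn2 did not. Without IONT 24 h replicate 1, 5 members of the list were called. Among the 19 members that did not pass, the calretinin gene Calb2 (-0.73, adjusted p = 0.0159), the neuropeptide gene Adcyap1 (-1.11, adjusted p = 0.0357) and the RNA-binding protein gene Elavl4 (-0.61, adjusted p = 0.0348) came nearest among those with lower values. Pou4f1, a transcription factor of RGCs, and Chrnb3, a nicotinic receptor subunit, were near the lowest signals at both times (log2 values under 3), as was Irx2, so their levels cannot be followed here. Isl1, a transcription factor shared with bipolar and amacrine cells, had a difference of 0.45 (adjusted p = 0.204) and the enkephalin precursor Penk one of 0.51 (adjusted p = 0.0822).

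Opn4, which encodes melanopsin, the photopigment of the intrinsically photosensitive RGCs, had the opposite sign to most of the list. It read 7.15 and 7.01 in naive, 8.25 and 8.10 at 24 h, 7.52 and 8.26 at 3 d, and 9.11 and 9.10 at 15 d. Both 15 d arrays were above both 24 h arrays, by 0.93 ± 0.22, but the difference did not pass the test (limma, adjusted p = 0.0176). Against naive, the 15 d value was higher by 2.03 and was called (adjusted p = 1.78e-04). In the arrays of the other set the gene ran the other way, from 6.80 to 7.31 at 12 h down to 4.52 to 4.68 at 7 d, a difference of -2.49 (adjusted p = 2.73e-06).

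Called genes of the axonal cytoskeleton were likewise all lower. Neurofilaments are the fibres that set the calibre of long axons, and RGCs are known to be rich in them. Of 24 measured members of the list of neurofilaments and axonal cytoskeleton, 8 were lower at 15 d, 0 were higher and 16 did not pass. Over all genes, 1.51% were called lower and 2.98% higher. The list's median difference was -0.51. Stmn2 is on this list as well as on that of the RGC markers.

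The fall was greatest in intermediate filament genes. Prph, which encodes peripherin, read 8.14 and 8.08 in naive, 8.44 and 8.69 at 24 h, 6.09 and 6.10 at 3 d and 3.63 and 2.51 at 15 d, a difference of -5.49 ± 0.39 between 15 d and 24 h (limma, adjusted p = 5.85e-06). Nefh, the heavy neurofilament subunit, read 10.20 and 10.09 at 24 h and 5.97 and 6.13 at 15 d, lower by 17.1-fold (adjusted p = 1.13e-05). For both genes the gap between the times was far wider than that between the 2 arrays of either time.

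Nefm, the medium subunit, read 9.96 and 9.93 at 24 h and 6.04 and 6.28 at 15 d, and fell by 3.78. Nefl, the light subunit, read 10.91 and 11.23 at 24 h and 7.85 and 7.38 at 15 d, and fell by 3.46. For both, limma gave an adjusted p of 1.17e-07. Smaller falls were measured for α-internexin, Ina (-1.24), for the axonal transport motor Kif5a (-0.80) and for Dpysl2, a collapsin response mediator (-0.52).

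The calls of Prph, Nefh, Nefm, Nefl and Dpysl2 held without any 1 of the 4 compared arrays, that of Ina ended without IONT 24 h replicate 1, and those of Kif5a and Stmn2 ended whichever of the 4 was left out. Other cytoskeletal genes, most of them in use in many neurons, had values near 0, such as Map1b (-0.04, adjusted p = 0.871), Mapt (0.07, adjusted p = 0.791) and Crmp1 (0.16, adjusted p = 0.420). The growth cone gene Gap43 had a difference of -0.34 (adjusted p = 0.362).

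Of all genes, 1.51% were called lower at 15 d and 2.98% higher. Among 20 genes of axon excitability, 2 were lower, the potassium channel gene Kcnc2 (-0.98) and the sodium channel subunit gene Scn2b (-0.61), and 0 were higher, with a median of -0.30. Neither call held when IONT 24 h replicate 1 was left out, and 0 of the 20 were then called. Both genes have further probe sets with values near 0 (highest -0.05 and -0.03). In the synaptic vesicle list, 4 of 26 members were lower and 1 higher. Besides Slc17a6 these were the release proteins Cplx1 (-1.14), Syt4 (-1.07) and Snap25 (-0.45), and Rims1, a scaffold of the release site, at 1.17. The list's median was 0.07, and the calls of Cplx1, Syt4 and Snap25 ended whichever of the 4 compared arrays was left out.

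Of 30 regeneration-associated genes of injured neurons 1 was higher (Atf3) and 1 lower (Sprr1a), or 6.67%, and of 22 immediate early transcription factors 1 was higher (4.55%), again Atf3, against 4.49% of all genes. For Sprr1a, a small proline-rich protein of regenerating neurons and of squamous epithelium, the arrays read 4.20 and 2.84 in naive, 11.20 and 8.07 at 24 h, and 2.78 and 3.37 at 15 d. Its 24 h replicates were thus far apart. The keratin gene Krt14, a marker of surface epithelium, read 11.04 and 7.79 in the same arrays against 2.57 and 3.93 at 15 d. Krt5 was at 10.51 and 6.30 in the 24 h arrays and Krt12, a keratin of the cornea, at 5.08 and 4.02. Over the 14 genes of eye muscle and surface tissue, the mean signal was 5.30 in IONT 24 h replicate 1 and 4.43 in replicate 2, against 3.54 and 4.34 at 15 d and 3.98 and 3.96 in naive. Without replicate 1, Sprr1a (adjusted p = 0.0592) and Krt14 (adjusted p = 0.0762) were not called. Of the 14 genes of eye muscle and surface tissue, 2 were called lower at 15 d (14.3%, against 1.51% of all genes). These were Krt14 and the muscle gene Myh1 (-1.90), each with 24 h arrays above both naive arrays. The call of Myh1 also ended without replicate 1 at 24 h. The part of surface tissue in the result for Sprr1a was not tested.

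Called genes of the integrated stress response were all higher at 15 d. In this response, phosphorylation of the initiation factor eIF2 slows protein synthesis in general while the transcription factor ATF4 is made, and ATF4 switches on genes for amino acid uptake, amino acid and one-carbon synthesis, and tRNA charging. Of 31 measured members, 14 were higher at 15 d, 0 were lower and 17 did not pass. Over all genes, 2.98% were called higher and 1.51% lower. The list's median difference was 0.61 against -0.02 for all genes. Both 15 d arrays lay above both 24 h arrays for 25 members, where 28.5% of all genes did so.

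Promoters were looked up for the called members, since ATF4 is known to bind a composite of a C/EBP and an ATF site. A window from 250 bases before to 50 after the RefSeq start on GRCr8 was at hand for 12 of the 14. TGATGNAA, on either strand, was found in 4 of the 12, Trib3, Chac1, Slc7a1 and Aars1, and in 3.98% of all 33469 windows of this length. The cAMP response element TGACGTCA was found in 0 of the 12 (1.83% of all windows), the AP-1 element TGANTCA in Ddit3 (7.33%) and the STAT element TTCNNNGAA in Shmt2 and Aars1 (8.87%). A match is a stretch of letters and not a measured binding site. The 4 windows with the composite are shown, with its letters in capitals, as TTNCATCA where it lies on the other strand. They are chr3:161275484-161275783 (minus strand) for Trib3, chr3:126795881-126796180 (plus) for Chac1, chr12:11664238-11664537 (plus) for Slc7a1 and chr19:55908232-55908531 (plus) for Aars1, each written 5′ to 3′ along the gene.
Trib3: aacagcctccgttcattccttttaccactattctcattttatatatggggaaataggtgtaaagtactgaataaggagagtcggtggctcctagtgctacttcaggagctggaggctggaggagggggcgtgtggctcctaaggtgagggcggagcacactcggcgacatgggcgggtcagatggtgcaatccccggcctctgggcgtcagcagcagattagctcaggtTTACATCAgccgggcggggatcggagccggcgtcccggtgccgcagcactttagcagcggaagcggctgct
Chac1: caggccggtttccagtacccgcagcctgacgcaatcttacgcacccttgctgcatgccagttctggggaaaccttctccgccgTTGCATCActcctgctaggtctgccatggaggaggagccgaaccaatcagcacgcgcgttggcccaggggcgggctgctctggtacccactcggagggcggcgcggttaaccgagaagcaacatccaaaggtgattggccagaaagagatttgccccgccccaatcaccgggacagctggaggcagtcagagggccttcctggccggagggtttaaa
Slc7a1: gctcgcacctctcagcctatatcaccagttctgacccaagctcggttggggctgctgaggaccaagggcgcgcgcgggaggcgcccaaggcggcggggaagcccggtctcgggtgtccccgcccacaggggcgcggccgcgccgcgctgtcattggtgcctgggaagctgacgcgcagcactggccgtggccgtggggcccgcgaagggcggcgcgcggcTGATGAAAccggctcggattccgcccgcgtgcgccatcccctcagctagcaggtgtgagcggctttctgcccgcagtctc
Aars1: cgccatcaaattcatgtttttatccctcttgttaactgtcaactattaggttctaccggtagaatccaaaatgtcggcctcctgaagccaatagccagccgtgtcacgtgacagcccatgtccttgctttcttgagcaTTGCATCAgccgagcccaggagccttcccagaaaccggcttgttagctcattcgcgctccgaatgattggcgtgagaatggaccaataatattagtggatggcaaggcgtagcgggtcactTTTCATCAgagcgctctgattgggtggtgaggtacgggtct

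The capitals start 21 bases before the start of transcription in Trib3, 167 before it in Chac1 and 30 before it in Slc7a1. Aars1 has 1 match 112 bases before and 1 within the transcript.

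Chac1, which encodes an enzyme that degrades glutathione, read 9.47 and 9.67 in naive, 7.39 and 7.67 at 24 h, 7.65 and 9.21 at 3 d, and 10.23 and 9.95 at 15 d. The 24 h arrays lay below naive and the 15 d arrays above it. Against naive, limma gave -2.04 at 24 h (adjusted p = 0.00801) and 0.52 at 15 d (adjusted p = 0.318, not called). The difference between 15 d and 24 h was 2.56 ± 0.37 (limma, adjusted p = 0.00123), a 5.91-fold increase. Trib3, a pseudokinase that feeds back on ATF4, read 7.06 and 7.41 in naive, 5.24 and 5.75 at 24 h and 7.99 and 8.08 at 15 d, higher at 15 d by 2.54 ± 0.37 (limma, adjusted p = 0.00136).

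Mthfd2, a mitochondrial enzyme of one-carbon metabolism, read 8.91 and 8.68 in naive, 6.71 and 6.74 at 24 h, 6.94 and 8.12 at 3 d and 9.05 and 9.14 at 15 d. The 2 arrays at 24 h all but coincided, as did those at 15 d, while those at 3 d lay apart, and 15 d differed from 24 h by 2.37 ± 0.30 (limma, adjusted p = 5.9e-04). Asns, asparagine synthetase, read 11.91 and 11.95 in naive, 10.82 and 11.27 at 24 h and 12.81 and 12.74 at 15 d, a difference of 1.73 ± 0.21 (limma, adjusted p = 3.16e-04).

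The other called members included amino acid transporters, Slc7a1 for cationic amino acids (2.00), Slc7a5 for large neutral ones (1.56) and its partner Slc3a2 (0.88). Enzymes of serine and glycine metabolism were Shmt2 (1.38) and Psat1 (0.98), and Aars1, which charges tRNA with alanine, had a difference of 0.61. Sesn2, an inhibitor of the growth kinase mTORC1, was higher by 1.95, the lipoprotein receptor gene Vldlr by 0.84, and the transcription factor genes Atf3 and Ddit3 by 1.13 and 0.55. Further probe sets of Sesn2, Slc7a1 and Vldlr had differences as low as 0.07, 0.06 and -0.02.

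Members without a call included Atf4 itself (0.47, adjusted p = 0.0338), Ppp1r15a, the phosphatase subunit that restores eIF2 (1.43, adjusted p = 0.0183), and Sars1 (0.59, adjusted p = 0.0141). Cebpb read 4.49 and 4.52 in naive, 5.83 and 5.56 at 24 h and 5.93 and 6.15 at 15 d, with a difference of 0.35 between the times (adjusted p = 0.179). Fgf21, Stc2, Aldh1l2 and Cth, with values under 3 at both times, gave no information.

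Both 24 h arrays lay below both naive arrays for 21 of the 31 members, where 22.9% of all genes did so, and both 15 d arrays lay above both naive arrays for 19 of the 31, where 31.2% of all genes did so. The 14 called members, which the call chose for a low value at 24 h or a high one at 15 d, made up 14 of the 21 and 11 of the 19. Against naive, the list's median was -0.50 at 24 h and 0.30 at 15 d. Of the 31, limma called 5 below and 1 above naive at 24 h, and 3 above and 0 below at 15 d. Over all probe sets, rather than 1 per gene, 1.44% were called against naive in either direction at 24 h and 2.82% at 15 d. Trib3 (0.80, adjusted p = 0.14) and Mthfd2 (0.30, adjusted p = 0.494) did not pass against naive at 15 d. The 3 d arrays were split for 11 of the 14. In these, IONT 3 d replicate 1 was closer to the 24 h mean and replicate 2 closer to the 15 d mean. The share of all genes split in this way was not counted, so the split is not shown to be particular to this list. The 3′ minus 5′ β-actin differences were 3.33 in IONT 3 d replicate 1 and 2.61 in replicate 2.

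The count of this list rested on single arrays. Without IONT 24 h replicate 1 it was 4, without the other compared arrays 10 to 12, and with the 8 arrays of the set alone 0, with medians from 0.53 to 0.83 over all alternatives. The calls of Mthfd2, Sesn2, Asns and Shmt2 held without any 1 of the 4 arrays.

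**Figure D3:**
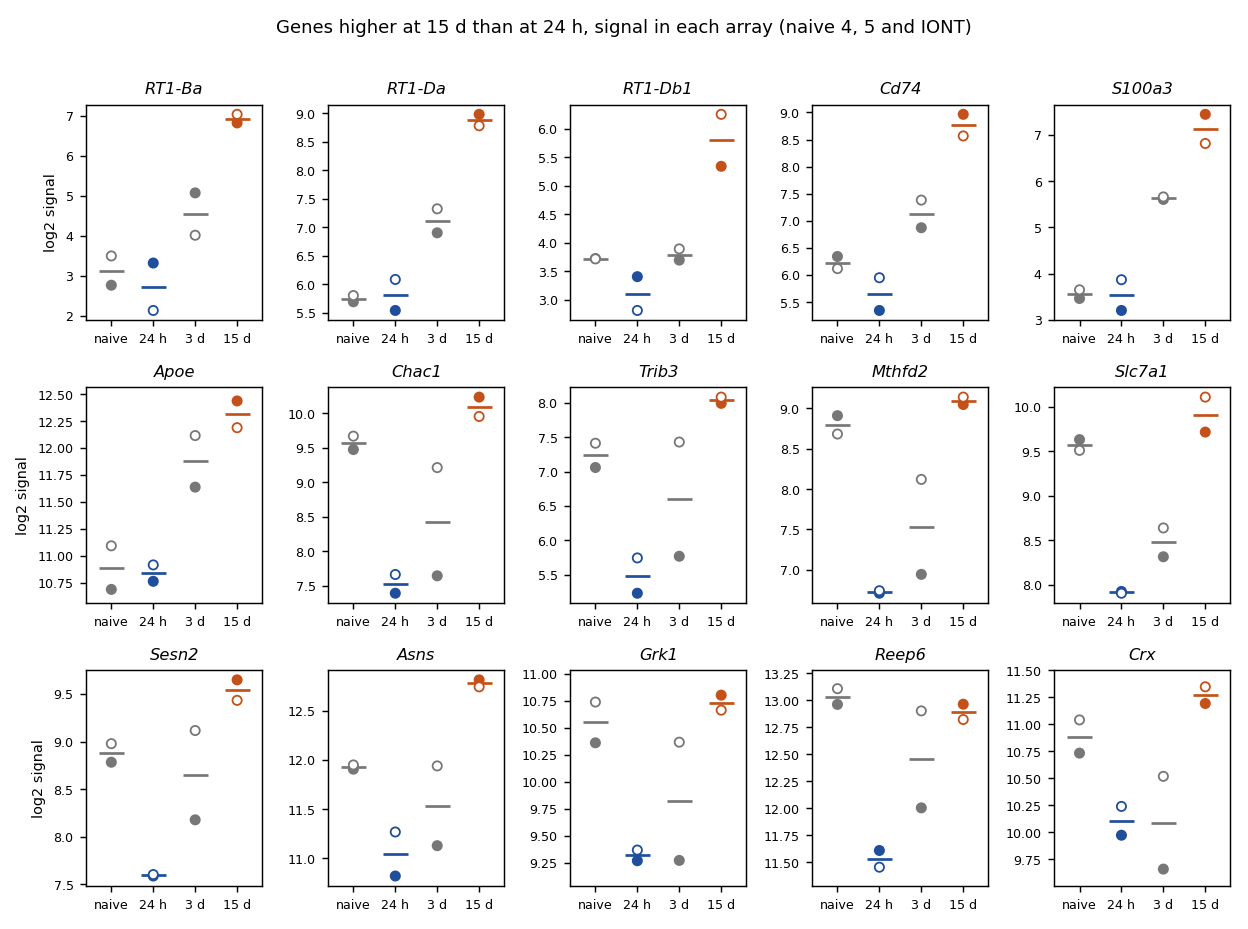
Log2 signal (y axis, its own scale in each panel) of 15 genes called higher at 15 d, in naive replicates 4 and 5 and in the IONT arrays at 24 h, 3 d and 15 d. Filled circles are naive 4 or replicate 1, open circles naive 5 or replicate 2, and bars the mean of both. For Chac1, Mthfd2 and Asns the 24 h arrays lay below the naive arrays and the 15 d arrays above them. Against naive at 15 d, limma called neither Chac1 nor Mthfd2. For Cd74 and RT1-Da the values at 15 d (8.57 to 8.98) were above all others.

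In the transection arrays of the other set, most of these genes were lower late than early. Between 12 h and 7 d, which share no array with 15 d and 24 h, 16 of the 31 members were lower at 7 d and 1 was higher, with a median of -0.81, and 11 of the 14 genes called higher at 15 d were among the 16. There 1648 probe sets (5.31%) were called in all, and of 14217 genes 641 (4.51%) were lower and 319 (2.24%) higher. Mthfd2 read 8.96, 8.99 and 9.27 in naive replicates 1 to 3, 7.72, 8.35 and 8.24 at 12 h and 2.90, 2.41 and 2.86 at 7 d. Asns fell from between 11.76 and 11.97 at 12 h to between 8.59 and 8.81 at 7 d, and Atf3 from between 10.65 and 11.01 to between 6.91 and 7.29. The 7 d and 15 d arrays lay in different array sets, so time and array set cannot be told apart between them.

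Chaperones of the endoplasmic reticulum gave more lower than higher calls. These proteins fold secreted and membrane proteins, and their genes answer to the unfolded protein response. Of 20 members, 3 were lower at 15 d and 1 higher, with a median of -0.41. Over all genes, 1.51% were called lower and 2.98% higher. The chaperone BiP, Hspa5, read 11.96 and 12.00 in naive, 12.66 and 12.35 at 24 h and 11.57 and 11.47 at 15 d, and fell by 0.99 (limma, adjusted p = 0.00856). Sdf2l1, a partner of BiP, fell by 1.49 and the disulfide isomerase Pdia6 by 0.73, and all 3 had 24 h arrays above naive. Herpud1, which takes part in degrading misfolded proteins, was higher by 0.67. None of these 4 calls held without each of the compared arrays.

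Called genes of MHC class II were all higher at 15 d. These molecules present peptides to helper T cells, and in the retina few cells carry them unless activated. Of 8 measured members, 4 were higher at 15 d, 0 were lower and 4 did not pass, with a median difference of 1.75. Over all genes, 2.98% were called higher and 1.51% lower. Cd74, the invariant chain that escorts class II molecules, read 6.34 and 6.12 in naive, 5.35 and 5.95 at 24 h, 6.87 and 7.38 at 3 d and 8.97 and 8.57 at 15 d. It was higher at 15 d than at 24 h by 3.12 ± 0.44 (limma, adjusted p = 0.00107).

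RT1-Da, a class II α chain, read 5.54 and 6.09 at 24 h and 8.98 and 8.78 at 15 d, with naive at 5.69 and 5.80, a difference of 3.07 ± 0.53 (limma, adjusted p = 0.00341). RT1-Ba, also an α chain, read 3.32 and 2.14 at 24 h and 6.82 and 7.04 at 15 d, higher by 4.20 ± 0.50 (limma, adjusted p = 3.37e-04). The 24 h values of RT1-Ba were at the low end of the scale, and its 4 probe sets ranged from -0.04 to 4.20. RT1-Db1, a β chain, read 3.41 and 2.81 at 24 h and 5.34 and 6.25 at 15 d, higher by 2.69 ± 0.29 (limma, adjusted p = 1.41e-04), while its other probe set had -0.22. Class II genes are closely related, and their probe sets may share signal. With all 35 arrays in the fit the calls of RT1-Da and RT1-Ba ended, and those of Cd74 and RT1-Db1 held. The difference of RT1-Da was 2.97 without IONT 15 d replicate 1 and 3.17 without replicate 2, but its call ended in both fits.

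The transactivator gene Ciita had a difference of 0.81 (adjusted p = 0.0694). The peptide loaders RT1-DMa (-0.18) and RT1-DMb (-0.36) and the β chain RT1-Bb (-1.39) had lower values at 15 d and did not pass. Without IONT 24 h replicate 1, 2 members were called, RT1-Ba and RT1-Db1, and with the 8 arrays of the set alone 0. Between 7 d and 12 h, 0 of the 8 were called. Cd74 had a difference of 1.61 there (adjusted p = 0.00842, with B not above 0), at 7.71 to 8.64 against 5.73 to 7.04, and RT1-Da one of 1.79 (adjusted p = 0.0120).

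Promoter windows were at hand for all 4. The composite, AP-1 and STAT elements were found in 0 of them, and the cAMP response element in RT1-Ba, where it starts 69 bases before the start of transcription. That window, chr20:4576807-4577106 on the plus strand of GRCr8, is shown as the class II gene with the greatest difference, with the element in capitals.
RT1-Ba: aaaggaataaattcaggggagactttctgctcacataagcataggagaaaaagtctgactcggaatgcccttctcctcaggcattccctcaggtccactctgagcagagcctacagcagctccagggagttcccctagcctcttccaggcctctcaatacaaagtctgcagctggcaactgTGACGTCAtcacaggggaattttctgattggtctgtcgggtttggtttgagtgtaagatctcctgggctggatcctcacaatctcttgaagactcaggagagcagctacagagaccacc

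Markers of microglia and macrophages, cells that can carry class II, gave a single call. Of 32 members 1 was higher (3.12%, near the 2.98% of all genes) and 0 were lower. The call was for the lysosomal protease gene Ctss, which trims the invariant chain (8.26 and 8.33 at 24 h, 9.48 and 9.14 at 15 d, a difference of 1.01). The list's mean signal was 4.32 and 4.28 in naive, 4.72 and 4.78 at 24 h, 6.21 and 5.39 at 3 d and 4.92 and 4.83 at 15 d. Of 20 genes of MHC class I and the immunoproteasome 0 were called by limma, and 4 were higher and 4 lower at an unadjusted p under 0.05. For the complement (18), interferon (28) and chemokine and cytokine (28) lists the count was also 0, and at an unadjusted p under 0.05 it was 6 higher and 4 lower, 1 higher and 2 lower, and 0 higher and 12 lower. Over all genes, 37.4% had an unadjusted p under 0.05 in either direction.

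Among S100 proteins and annexins, S100a3, a calcium-binding protein, was higher (5.56%, against 2.98% of all genes) and the other 17 did not pass. It read 3.46 and 3.65 in naive, 3.20 and 3.87 at 24 h, 5.60 and 5.66 at 3 d and 7.44 and 6.81 at 15 d. Signal was thus higher at 3 d than at 24 h and higher again at 15 d, which was above 24 h by 3.59 ± 0.49 (limma, adjusted p = 8.94e-04). The list's median was -0.31, and without IONT 24 h replicate 1 the gene was just short of the threshold (adjusted p = 0.0106).

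Of 22 Müller glia markers 3 were higher (13.6%, against 2.98% of all genes) and 0 lower, with a median of 0.15. Cav1, which forms caveolae, read 10.82 and 10.70 in naive, 9.74 and 9.997 at 24 h and 10.88 and 10.83 at 15 d, close to naive at 15 d, with a difference of 0.99 ± 0.07 between the times (limma, adjusted p = 8e-06). Apoe, a lipid carrier, read 10.69 and 11.09 in naive, 10.76 and 10.92 at 24 h, 11.64 and 12.12 at 3 d and 12.44 and 12.19 at 15 d, higher by 1.47 ± 0.16 (limma, adjusted p = 1.92e-04), and its second probe set had -0.18. Abca8a, a lipid transporter, was the other, at 0.50, and its call ended under 28 of 37 alternatives.

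Of 29 genes of reactive gliosis 1 was lower (3.45%, against 1.51% of all genes) and 0 were higher. This was Serpina3n, a secreted protease inhibitor, at 2.83 and 2.76 in naive, 7.36 and 7.33 at 24 h, 7.18 and 5.86 at 3 d and 5.50 and 3.48 at 15 d. It fell by 2.85 (limma, adjusted p = 0.00548), with a wide gap between its 15 d replicates. Gfap, the intermediate filament of reactive glia, read 9.24 and 9.32 in naive, 10.34 and 10.65 at 24 h and 10.57 and 9.29 at 15 d, with no call (adjusted p = 0.276). Lcn2, Timp1 and Cp also had values above naive at 24 h and differences of -1.04, -0.30 and -0.99 between the times that did not pass.

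Among markers of the retinal neurons without an axon in the nerve, the share called was 11.5% for rods, 14.3% for cones, 9.09% for bipolar, and 8.00% for amacrine cells, with 1 of 10 genes for horizontal cells, and each share came from 1 to 3 genes, against 4.49% of all genes. Of 26 rod genes 3 were higher and 0 lower, with a median of 0.09. These were the rhodopsin kinase gene Grk1 (9.27 and 9.37 at 24 h, 10.80 and 10.66 at 15 d), Reep6 (11.61 and 11.45, then 12.96 and 12.82), a membrane protein of rods, and the photoreceptor transcription factor gene Crx (9.97 and 10.24, then 11.19 and 11.35). Naive arrays read 10.36 and 10.74, 12.96 and 13.11, and 10.73 and 11.04 for these genes, so it was at 24 h that they stood below naive. All arrays thus carried photoreceptor genes, in keeping with the labelled tissue, the retina. None of the 3 calls held when any 1 of the 4 compared arrays was left out.

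Of 14 cone genes 1 was higher (Grk1) and 1 lower (Kcne2, a potassium channel subunit, -1.34). Prkca, protein kinase C α of rod bipolar cells, was the 1 of 11 bipolar genes called, at 6.72 and 6.89 at 24 h and 7.60 and 7.78 at 15 d (0.89, adjusted p = 2.06e-04). Among 25 amacrine genes the glycine transporter gene Slc6a9 (1.04) and the vesicular acetylcholine transporter gene Slc18a3 (0.58, from 3.27 and 3.28 to 3.88 and 3.83) were higher. Ndrg1 (0.59), of 10 horizontal cell genes, and Kcnj8 (0.80, from 2.21 and 2.36 to 3.31 and 2.85), a channel of pericytes, of 23 vessel genes, were the others. For vessel genes the share called was 4.35%, near the 4.49% of all genes. The call of Ndrg1 ended under 28 of 37 alternatives. The medians of these lists lay between -0.05 and 0.24.

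**Figure D4:**
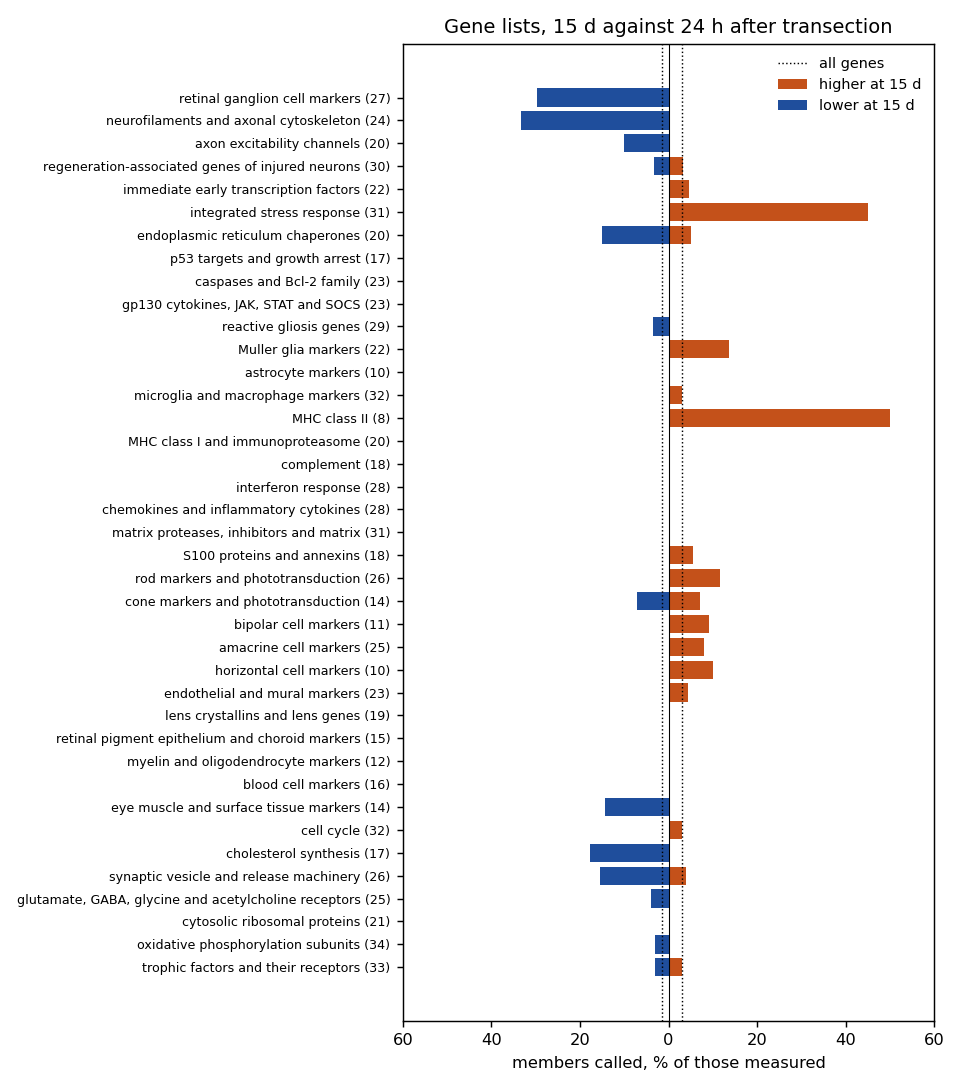
Share of the measured members of each of 39 gene lists (number measured in brackets) called higher at 15 d than at 24 h (orange, to the right of 0) or lower (blue, to the left), in percent. Dotted lines mark the shares over all genes, 2.98% higher and 1.51% lower; RGC markers and neurofilaments had only lower calls, and the integrated stress response and MHC class II only higher ones.

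Lens genes varied between the pools. Of 19 crystallin and lens genes 0 were called by limma, with 6 lower at an unadjusted p under 0.05, a median of -1.31 and mean signals of 10.90 and 11.57 in naive, 7.64 and 10.36 at 24 h and 6.95 and 7.88 at 15 d. The 24 h replicates were thus far apart, replicate 1 being the lower. Crygd, for example, read 12.01 and 13.15 in naive, 5.72 and 10.80 at 24 h and 2.33 and 5.48 at 15 d. Against naive replicates 4 and 5 the list's median was -2.11 at 24 h and -3.09 at 15 d, with 0 and 8 members called lower. Over all probe sets, 1.44% were called against naive at 24 h and 2.82% at 15 d, counting either direction. Both 24 h arrays lay below both naive arrays for 16 of the 19, where 22.9% of all genes did so. The part of lens in any other result was not tested.

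Of 17 genes of cholesterol synthesis 3 were lower (17.6%, against 1.51% of all genes) and 0 higher, with a median of -0.31. These were the enzyme genes Sc5d (-0.93), Cyp51 (-0.72) and Msmo1 (-0.43), and 0 of the 3 calls held without IONT 24 h replicate 1 or without IONT 15 d replicate 1. Of 25 neurotransmitter receptor genes 1 was lower, Gabra2, a GABA receptor subunit (7.50 and 7.49 at 24 h, 5.26 and 5.64 at 15 d, -2.05). Of 33 trophic factors and receptors Vegfa, the endothelial growth factor, was higher (0.95) and Fgf12 lower (-0.95), and of 32 cell cycle genes the replication helicase gene Mcm7 was higher (0.40). Of 34 subunits of oxidative phosphorylation Ndufb5 was lower (-0.57). The shares called were 4.0% for receptors, 6.06% for trophic factors, 3.12% for the cell cycle and 2.94% for oxidative phosphorylation. Of all genes, 4.49% were called. The calls of Gabra2, Vegfa, Fgf12, Mcm7 and Ndufb5 ended with all 35 arrays in the fit.

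In 14 of the 39 lists limma called 0 members, among them p53 targets (17 members), caspases and the Bcl-2 family (23), gp130 cytokines with JAK, STAT and SOCS (23), astrocyte markers (10) and ribosomal proteins (21). At an unadjusted p under 0.05, 30 of the 281 entries of these 14 lists were higher and 65 lower, and 3 to 12 per list, against 37.4% of all genes in either direction. Ccng1, a p53 target, read 12.31 and 12.49 at 24 h and 11.46 and 12.02 at 15 d (-0.65, adjusted p = 0.0132), and Mcl1, an inhibitor of apoptosis, 10.93 and 10.95 against 10.06 and 10.37 (-0.72, adjusted p = 0.0754).

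Several of the greatest differences were outside the lists. Tmem163, a zinc transporter of synaptic vesicles, read 7.91 and 7.77 in naive, 7.13 and 7.14 at 24 h, 7.24 and 7.59 at 3 d and 3.92 and 4.27 at 15 d, and fell by 3.04 (limma, adjusted p = 6.94e-06). Miat, a long noncoding RNA, read 6.09 and 6.27 at 24 h and 4.56 and 3.29 at 15 d, and fell by 2.26, and Acyp2, an acylphosphatase, fell by 2.26 as well, from 24 h values (9.20 and 9.08) above naive (8.07 and 8.31). At 3 d the arrays of Tmem163 still lay between those at 24 h and those of naive retinas. The call of Acyp2 ended whichever of the 4 compared arrays was left out.

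Mfap4, a protein of elastic fibres, read 7.37 and 7.58 in naive, 5.64 and 4.94 at 24 h and 8.17 and 8.70 at 15 d, higher by 3.14 ± 0.39 (limma, adjusted p = 4.3e-04). Its 24 h arrays were below naive by 2.18 and called so (adjusted p = 0.00723). Tmem116, a membrane protein, had the same course, with 7.72 and 7.81 in naive, 5.73 and 5.98 at 24 h and 8.16 and 8.20 at 15 d. Cnpy1, on the other hand, was near the lowest signals in naive (2.85 and 2.75) and at 24 h (3.09 and 2.79) and read 5.04 and 5.61 at 15 d. Miox, an enzyme of inositol breakdown, was higher by 2.92, and Ltk, a receptor kinase, Cpxm1, a carboxypeptidase relative, and Dusp12, a phosphatase, by 2.17, 2.14 and 2.10. The call of Ltk ended under 25 of 37 alternatives, and those of Miox, Cpxm1 and Dusp12 under 4, 3 and 4.

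Of the 80 called genes that the naming rule took, 28 kept their call without each of the 4 compared arrays in turn. Calls ended in 52 of the 80 without IONT 24 h replicate 1, in 26 without replicate 2, in 37 without IONT 15 d replicate 1 and in 31 without its replicate 2. Several RGC, cytoskeleton, class II and stress response genes already given kept their call. The others that did were Rbpms2, Tmem163, Miat, Mfap4, Cnpy1, Tmem116, Cpxm1, Apoe, Cav1, Prkca, Slc18a3 and Kcnj8. Of these, Slc18a3 and Kcnj8 had low signals and did not pass the filter of log2 above 4 in at least 2 arrays. Both 24 h arrays of Kcnj8 were under a log2 value of 3.

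Late against early comparisons were set beside these results, with no compared array in common. The spread was not separate, however. The IONT comparisons came from the same fit and used the same spread for each probe set. The IONC fit took in the same naive arrays. A probe set with a small spread is thus more easily called in each comparison. The overlap of calls therefore cannot be read against the share of all probe sets alone. Of the 438 probe sets lower at 15 d, 46 were also lower at 7 d than at 12 h after IONT (10.5% of the 438 and 4.81% of the 956 lower there, 3.08% of all), and 21 were higher. Of the 737 higher at 15 d, 31 were also higher at 7 d (4.21% of the 737 and 4.48% of the 692 higher there, 2.23% of all), and 92 were lower. Slc17a6 was lower at 7 d by a difference of -3.61, at 5.30 to 6.36 against 9.41 to 9.55 at 12 h. Of the 8 RGC markers lower at 15 d, 6 were also lower at 7 d, and of the 8 neurofilament and cytoskeleton genes 5 were. Of all genes, 4.51% were lower at 7 d. Stmn2 is among the 8 of both lists.

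After crush, 28 probe sets (0.0902%) were called between 7 d and 24 h, 8 of them higher (0.0258%) and 20 lower (0.0644%). Of the 20, 13 were also lower at 15 d after transection (65.0% of the 20 and 2.97% of the 438), and of the 8 higher 1 was (12.5% of the 8 and 0.136% of the 737). Slc17a6 had a difference of -2.30 after crush (adjusted p = 0.00177), Nrn1 -4.15 (adjusted p = 5e-06), Nefh -3.55 (adjusted p = 4.4e-05) and Nefl -2.43 (adjusted p = 1.03e-04). Differences for Cd74 (1.95, adjusted p = 0.374), Chac1 (0.58, adjusted p = 0.662) and Mthfd2 (0.76, adjusted p = 0.662) did not pass.

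**Figure D5:**
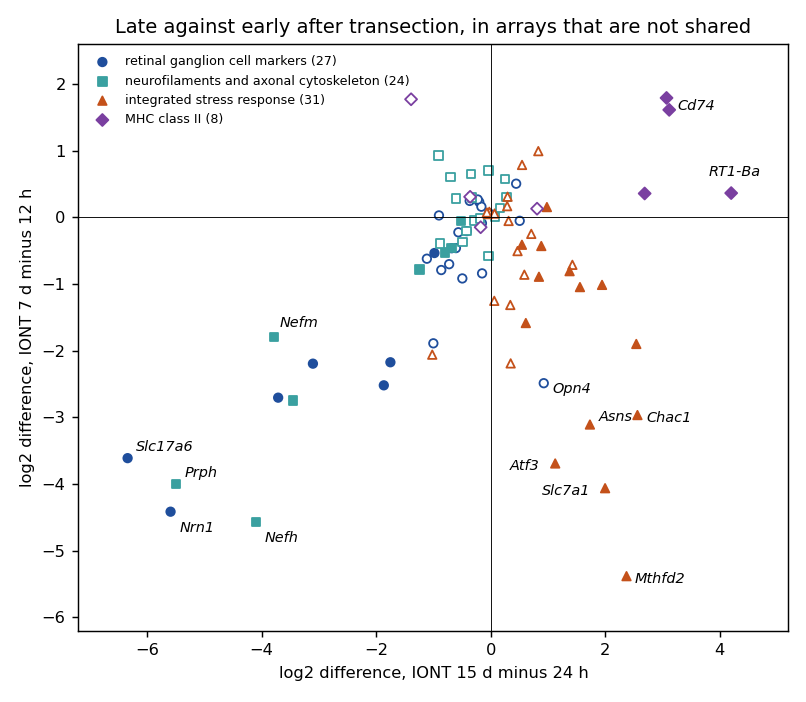
Log2 difference between 15 d and 24 h (x axis) and between 7 d and 12 h (y axis) after IONT, in arrays that are not shared, for the members of 4 gene lists, filled where called between 15 d and 24 h. Slc17a6, Nrn1, Prph and Nefh were lower in both, Mthfd2, Slc7a1, Atf3, Asns and Chac1 were higher at 15 d and lower at 7 d, and Opn4 (open) had 0.93 and -2.49.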

How the data were processed

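Values were deposited by the authors as log2 signals per probe set of Affymetrix RAE230.2 arrays, made with GCRMA. The versions of GCRMA and of the authors' limma were not given in the sources used here, nor is it known if the arrays were normalized jointly. Values were used as deposited. Of 31099 probe sets, 57 controls were left out and 31042 tested, of which 20826 had 1 gene symbol in the platform annotation, 436 several and 9780 none. Several probe sets stood for 4525 of the 14217 genes, and the one of highest mean signal over 35 arrays was then taken.

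limma 3.58.1 (R 4.3.3) fitted 20 arrays (naive and IONT) with 1 coefficient per group and naive split by array set, and the contrast was IONT 15 d minus 24 h. The adjusted p, B and fold thresholds are those of the study's methods. IONC was fitted with 17 arrays, without 12 h. The procedure was tested on simulated data. Named were the 15 greatest increases and decreases among called genes whose arrays did not overlap, up to 5 called members per list, or its 2 members of highest signal where fewer than 2 were called, and any RGC or neurofilament member. Further genes, namely uncalled members of the other lists, Aard and the examples of surface, lens and gliosis genes, were chosen after their values were seen. The comparison, the 39 gene lists (802 genes), the tests and the fit were chosen with earlier results of these data known. Promoter sequences came from RefSeq (GRCr8). The replicate numbers of the 24 h arrays in the descriptions and the letters in the titles are opposite, and numbers follow the descriptions. Alternatives were other sets of arrays, thresholds, a filter (log2 above 4 in at least 2 arrays), moderation, weights, centring, loess, a replicate block and each array left out.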

Additional observations from a re-analysis of the deposited data

How the results depend on the processing

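The number of probe sets called (1175, 737 higher and 438 lower) changed as follows. It was 587 (410 and 177) with all 35 arrays in the fit, 522 (319 and 203) with 1 coefficient for all naive arrays, 637 (386 and 251) with array weights, 3552 (2135 and 1417) at an adjusted p under 0.05 without B, 4 (1 and 3) with the 8 arrays of the array set and 0 (0 and 0) with the 4 compared arrays. Centring raised the lower calls to 759. Leaving out 1 array at a time gave 421 to 1874 calls, 251 to 1027 higher and 170 to 847 lower. The lowest total was without IONT 24 h replicate 1, and the highest without either IONT 3 d array, since the array that remained then added nothing to the spread. Chosen after seeing the data, leaving out both IONT 3 d arrays gave 1874 (1027 and 847), and leaving out IONT 24 h replicate 1 as well gave 1199 (611 and 588). With the replicate number as a block the count was 965 (649 and 316), and with the letters of the titles 879 (586 and 293). The differences between replicates 1 and 2 at 15 d and at 24 h correlated at -0.138 by number and 0.138 by letter, and no label ties the numbers to animals or days, so they were not taken as pairs. By sign alone, without a call, 377 of the 737 and 216 of the 438 had the same direction between 7 d and 12 h after IONT, where 65.5% and 34.5% of all probe sets did, and 487 and 184 between 7 d and 24 h after IONC, where 67.6% and 32.4% did. No alternative turned the direction of a named gene that was called, while uncalled genes with values near 0, such as Map1b (-0.18 to 0.11), Mapt (-0.01 to 0.14) and Chrnb3 (-0.11 to 0.02), had both signs. Of the 80 named calls, 77 ended with the 8 arrays, 80 with the 4 arrays, 47 with all 35, 5 with centring, 4 with loess and 18 with the replicate block by number.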
